A study of Mus musculus with 3 samples.

Results

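Crypt base stem cell markers are genes whose transcripts have been used to recognise the stem cells at the bottom of the intestinal crypt. The 9 genes described here, *Lgr5*, *Olfm4*, *Ascl2*, *Smoc2*, *Gkn3*, *Tnfrsf19*, *Prom1*, *Mex3a* and *Prox1*, were taken by name from a fixed list, and all 9 were found among the 27998 genes of the count matrices. They were measured by single-cell RNA sequencing of EpCAM+ epithelial cells sorted from the mouse small intestine, with 1 library of 1 genotype each. WT cells came from C57BL/6 mice on day 21 after tamoxifen, *LApc* cells on day 29 from animals with *Lgr5-EGFP-IRES-CreERT2* and *Apc* fl/fl, and *LApcL* cells on day 21 from animals that carried *Lef1* fl/fl besides. The mice had received 2 doses of 2 mg tamoxifen at an age of 7 to 8 weeks. The questions were at which level each marker stood in each cell type of the 3 libraries, and which markers stayed coupled to *Lgr5* in single cells.

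There was no replicate library, so no test was possible and every interval is a 95% interval of counting error of UMIs, the molecular tags that mark single captured RNA molecules. Genotype cannot be told apart from mouse and library, nor, for *LApc*, from day and depth. The Cre of *LApc* and *LApcL* sits in an *Lgr5* allele and acts in only some stem cells, so these libraries mix recombined with unrecombined cells. The labels do not say whether WT carried this allele, and its part in the *Lgr5* counts was not tested.

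*Lgr5* encodes a receptor for R-spondins, secreted proteins that strengthen Wnt signalling, and marks the cycling stem cells between the Paneth cells. *Ascl2* is a Wnt-driven transcription factor of these cells, *Olfm4* a secreted glycoprotein, *Smoc2* a secreted matricellular protein, *Gkn3* a secreted gastrokine, *Tnfrsf19* (Troy) a receptor of the TNF receptor family, *Prom1* the membrane protein CD133, *Mex3a* an RNA-binding protein and *Prox1* a homeobox transcription factor. Loss of *Apc* stabilises β-catenin, which acts through Tcf and Lef proteins, of which *Lef1* encodes one.

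Cells were put into classes by clustering without the 9 genes and by markers that included none of them. This gave crypt-like cells (stem and transit-amplifying, 3048 in WT, 2137 in *LApc* and 1709 in *LApcL*), adenoma-like cells named by *Sox17*, *Msx1* and *Wif1* among others (3, 1265 and 8712), and enterocyte-, goblet-, Paneth-, enteroendocrine- and tuft-like cells. The median UMI count of the kept cells was 9713 in WT, 6132 in *LApc* and 10156 in *LApcL*, and 17.7% of the *LApc* barcodes had been above the mitochondrial limit against 0.541% and 2.38%. Pairs of libraries shared 214 to 318 cell barcodes, which were 1.62% to 2.52% of the barcodes of a library. The 4 epithelial markers were detected in each library, and 10 immune and stromal markers summed to 1.97 to 8.09 CPM, which are the UMIs of a gene scaled to a fixed total over the summed cells. *Sox17*, absent from WT crypt-like cells, stood at 34 CPM in *LApcL* crypt-like cells and at 35.9 CPM in *LApcL* enterocyte-like cells, against 322 CPM in the adenoma-like cells of that library, and the part of free RNA in this was not tested. As a check of the labels, *Lef1* stood at 21.5 CPM in *LApc* and 3.56 CPM in *LApcL* adenoma-like cells, against 0.347 CPM in WT crypt-like cells. *Lef1* was also among the markers used to name adenoma-like cells. *Apc* stood at 49.2 and 37.4 CPM against 19.2 CPM in the same cells. Tags from the transcript's end need not lie in the deleted exons, so these counts are no measure of recombination.

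The promoters shown are the 4 with a Tcf/Lef core and that of *Olfm4*. The 4 belong to genes that stood at least 2-fold higher in *LApc* adenoma-like than in WT crypt-like cells, and *Olfm4* stood lower. *Mex3a*, which stood at least 2-fold higher too, held no core and is not shown. The sequences are from RefSeq on GRCm38.p6, each with 250 bases before and 50 after an annotated start, read 5′ to 3′ on the gene's strand, with the core CTTTGA or CTTTGT, or its reverse complement, in capitals. *Gkn3* (chr6:87388886-87389185, minus strand) held the core 142 bases before the start, the second *Tnfrsf19* promoter (chr14:61037938-61038237, minus strand) 201 bases before, the second *Prox1* promoter (chr1:190169466-190169765, minus strand) 174 bases before, and the second *Prom1* promoter (chr5:44094719-44095018, minus strand) 8 bases after it. *Olfm4* (chr14:80000052-80000351, plus strand) held none.
Gkn3: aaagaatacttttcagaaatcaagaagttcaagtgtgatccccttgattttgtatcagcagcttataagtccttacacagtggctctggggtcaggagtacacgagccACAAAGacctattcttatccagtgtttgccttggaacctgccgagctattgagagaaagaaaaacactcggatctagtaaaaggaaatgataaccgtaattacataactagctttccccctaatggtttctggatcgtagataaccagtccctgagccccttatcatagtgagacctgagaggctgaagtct
Tnfrsf19: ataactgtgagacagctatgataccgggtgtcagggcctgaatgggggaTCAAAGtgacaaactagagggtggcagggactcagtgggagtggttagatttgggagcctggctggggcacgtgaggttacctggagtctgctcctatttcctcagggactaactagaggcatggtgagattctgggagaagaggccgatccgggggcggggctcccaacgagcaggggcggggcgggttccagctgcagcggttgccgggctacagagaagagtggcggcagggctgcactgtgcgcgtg
Prox1: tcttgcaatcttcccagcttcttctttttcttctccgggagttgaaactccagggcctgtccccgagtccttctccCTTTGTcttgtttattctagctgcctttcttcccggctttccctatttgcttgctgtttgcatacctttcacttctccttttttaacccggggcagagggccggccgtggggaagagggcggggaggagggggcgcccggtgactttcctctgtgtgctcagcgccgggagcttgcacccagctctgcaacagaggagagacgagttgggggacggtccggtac
Prom1: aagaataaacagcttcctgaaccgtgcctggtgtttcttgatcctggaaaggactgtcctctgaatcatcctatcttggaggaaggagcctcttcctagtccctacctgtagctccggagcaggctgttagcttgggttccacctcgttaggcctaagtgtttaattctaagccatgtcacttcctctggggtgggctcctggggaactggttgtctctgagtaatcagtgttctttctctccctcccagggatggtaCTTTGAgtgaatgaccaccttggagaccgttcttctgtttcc
Olfm4: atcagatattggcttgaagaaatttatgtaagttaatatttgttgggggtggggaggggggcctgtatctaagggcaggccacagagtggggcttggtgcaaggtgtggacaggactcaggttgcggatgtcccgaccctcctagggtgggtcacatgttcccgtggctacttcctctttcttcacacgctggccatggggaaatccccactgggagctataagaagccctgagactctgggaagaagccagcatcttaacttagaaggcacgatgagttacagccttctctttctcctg
Entries were found for 7 of the 9 genes with 10 promoters, of which these 4 held a core. Of all 32851 promoters of this length 31.2% held one. Neither *Ascl2* and *Mex3a* nor the first promoters of *Tnfrsf19*, *Prom1* and *Prox1* did. A match is a description of letters, not of binding.

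In the WT library, 5 of the 9 genes had their highest level in crypt-like cells. *Lgr5* (chr10:115450311-115587780) stood at 36.5 CPM (34.5 to 38.5) there and at 40.3 CPM (32.5 to 49.3) in tuft-like cells, and the intervals overlapped. Tuft cells are rare chemosensory cells of the epithelium. Paneth-like cells (10.2 CPM) and enteroendocrine-like cells (9.51 CPM) followed, and *Lgr5* was lowest in goblet-like (4.30 CPM) and enterocyte-like cells (3.37 CPM). Within each of these last 2 pairs the intervals overlapped. *Olfm4* (chr14:79984081-80023139) had 40.5 CPM in crypt-like cells and 15.5 CPM or less in the other named classes, *Gkn3* (chr6:87383256-87388935) 108 CPM and 35.1 CPM or less, and *Tnfrsf19* (chr14:60963875-61046490) 7.32 CPM and 3.17 CPM or less. *Smoc2* (chr17:14279506-14404790) stood at 96.2 CPM in crypt-like and 64.7 CPM in tuft-like cells, and *Ascl2* (chr7:142966829-142969264) at 68.8 and 60.0 CPM, with intervals that overlapped for *Ascl2* only. These markers thus did not separate crypt-like from tuft-like cells of this library by a wide margin, apart from *Olfm4*, *Gkn3* and *Tnfrsf19*.

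*Prom1*, *Mex3a* and *Prox1* were highest in tuft-like cells. *Prom1* (chr5:43993620-44102032) had 117 CPM there, 75.5 CPM in goblet-like and 51.7 CPM in crypt-like cells. *Mex3a* (chr3:88532395-88541396) had 12.0 CPM against 5.70 CPM in crypt-like cells. *Prox1* (chr1:190118035-190170714) had 51.4 CPM in tuft-like, 23.8 CPM in enteroendocrine-like, 12.6 CPM in goblet-like and 1.33 CPM (0.974 to 1.78) in crypt-like cells, the last no higher than the 1.86 CPM of Paneth-like cells. Against its name as a crypt base marker, *Prox1* had only 6.45% of its WT UMIs in crypt-like cells, a class that held 28.6% of all UMIs, whereas *Lgr5* had 69.3% and *Gkn3* 79.2% there. *Prom1*, with 31.3%, was near the share of the class. Of the 9 genes, 3 were at least 2-fold higher and 3 at least 2-fold lower in WT tuft-like than in crypt-like cells, where 18.6% and 10.2% of all tested genes were.

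**Figure D1:**
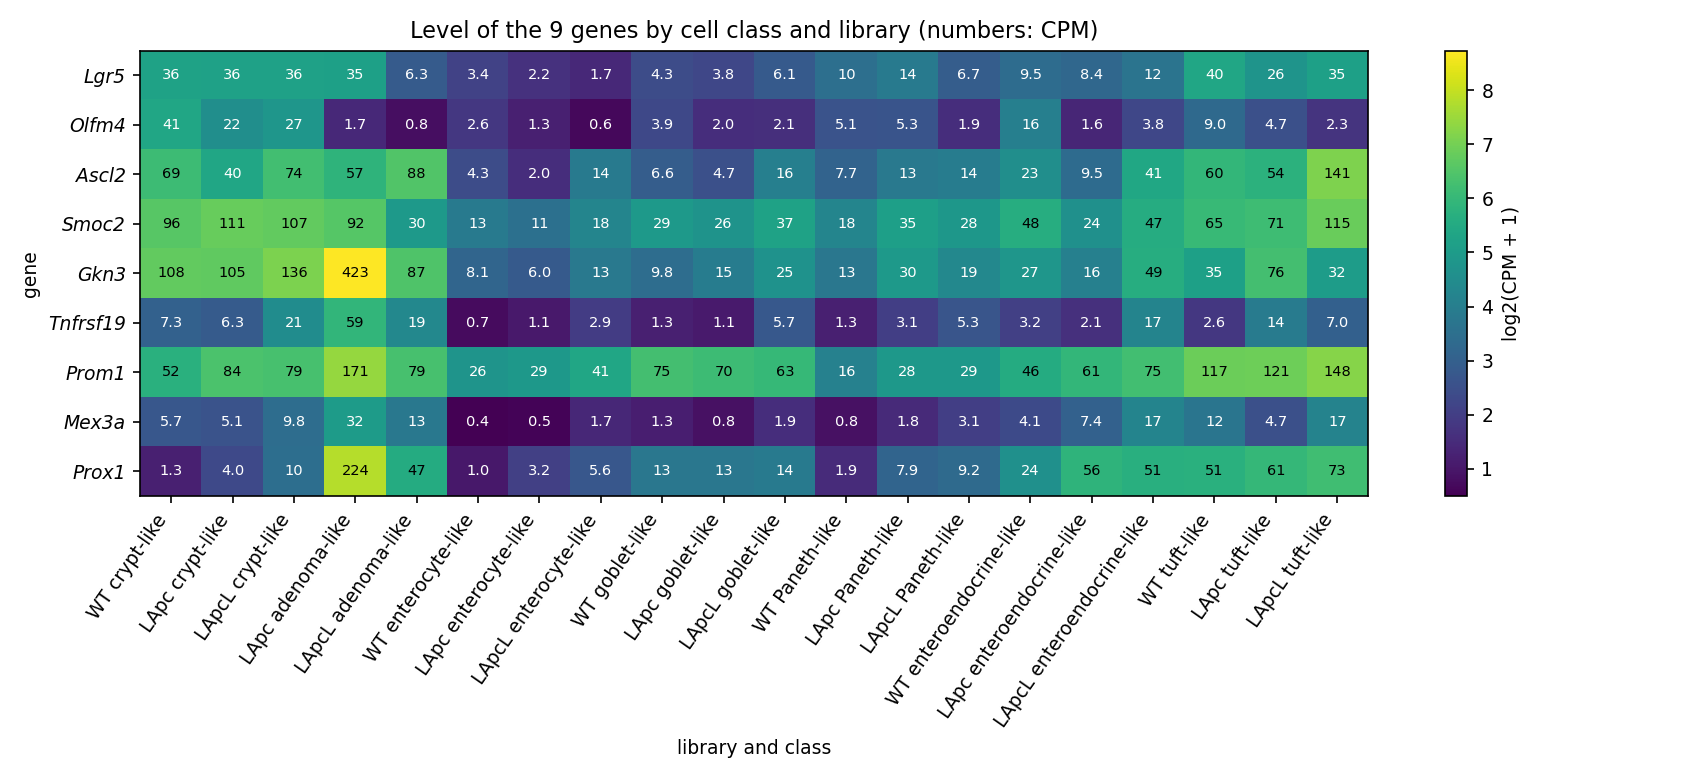
Level of the 9 genes in each cell class of the 3 libraries. Columns are classes by library, colour is log2(CPM + 1) and the printed number is CPM. *Lgr5* stands at 35.0 to 36.5 CPM in the crypt-like cells of each library and in *LApc* adenoma-like cells, and *Prox1* reaches 224 CPM in *LApc* adenoma-like cells.

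Crypt-like cells of the mutant libraries differed little from WT in most of the 9 genes. The *LApc* level of *Lgr5* was 36.0 CPM (33.0 to 39.1) and its *LApcL* level 35.6 CPM (32.7 to 38.7), which lay within the counting error of the WT level. Only *Prox1* passed 2-fold in *LApc* crypt-like cells, with 4.02 CPM and a log2 ratio to WT of 1.59 (1.02 to 2.18) on 62 UMIs, where 3.18% of all tested genes were at least 2-fold higher and 1.18% at least 2-fold lower. *Olfm4* fell short of 2-fold at −0.85 (22.5 CPM), as did *Ascl2* at −0.78 (40.0 CPM). In *LApcL* crypt-like cells 2 genes were at least 2-fold higher, *Prox1* at 10.1 CPM (log2 2.93) and *Tnfrsf19* at 21.4 CPM (log2 1.54), against 4.52% of all tested genes, and none at least 2-fold lower, against 2.29%. Adenoma markers move with these values. The 9 adenoma markers summed to 188 CPM in *LApcL* crypt-like cells, against 2.75 CPM in those of WT and 12.3 CPM in those of *LApc*. Without integration of the libraries, 1025 *LApcL* crypt-like or adenoma-like cells fell in a crypt cluster. They had *Tnfrsf19* at 8.30 CPM and *Prox1* at 2.70 CPM, on 83 and 27 UMIs, against 7.32 and 1.33 CPM in WT crypt-like cells. The 91 such WT cells in that cluster had 20.7 and 9.19 CPM, on 18 and 8 UMIs. The part of adenoma cells or of their free RNA in the *Prox1* and *Tnfrsf19* levels was not tested. Per *Sox17* UMI, *Tnfrsf19* had 0.628 UMIs in *LApcL* crypt-like, 0.0595 in adenoma-like and 0.0796 in enterocyte-like cells, and *Prox1* 0.298, 0.145 and 0.157.

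*LApc* adenoma-like cells had *Lgr5* at the crypt level on average and departed from that level in 6 of the other 8 genes. *Lgr5* stood at 35.0 CPM (31.5 to 38.9) against 36.5 CPM in WT crypt-like cells, a log2 ratio of −0.06 (−0.23 to 0.12). *Prox1* rose from 1.33 to 224 CPM, 168-fold, *Tnfrsf19* from 7.32 to 59.2 CPM (log2 3.02), *Mex3a* from 5.70 to 31.6 CPM (log2 2.47), *Gkn3* from 108 to 423 CPM (log2 1.97) and *Prom1* from 51.7 to 171 CPM (log2 1.73). *Olfm4* was the gene that was lost, from 40.5 to 1.70 CPM on 17 UMIs, a log2 ratio of −4.58 (−5.36 to −3.89). *Smoc2* (92.3 CPM, log2 −0.06) and *Ascl2* (57.1 CPM, log2 −0.27) stayed within 2-fold. So 5 of the 9 were at least 2-fold higher and 1 at least 2-fold lower, against 24.8% and 5.86% of all tested genes, and the median log2 ratio was 1.73 against 0.30 over all tested genes. Within the *LApc* library, adenoma-like against crypt-like cells, the same count held (5 and 1, against 20.9% and 5.82%), with *Prox1* at 5.80, *Tnfrsf19* at 3.24 and *Olfm4* at −3.73 on the log2 scale. The level of *Lgr5* was not even among these cells. In 407 of them, a cluster led by *S100g*, it was lower than in WT crypt-like cells at a log2 ratio of −1.11. In 724, a cluster led by *Wfdc18*, it was higher than in WT crypt-like cells, at 51.7 CPM.

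*Gkn3* gained UMIs per cell more than cells. It was detected in 38.4% of *LApc* adenoma-like cells and in 41.7% of WT crypt-like cells. In cells thinned at random to 3000 UMIs each, which sets depth equal, the shares were 29.1% and 21.9%. The share of cells with a *Prox1* UMI rose from 0.492% to 41.2% on the same footing, that of *Tnfrsf19* from 2.17% to 17.3% and that of *Prom1* from 13.7% to 36.5%.

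*LApcL* adenoma-like cells had a lower level of *Lgr5*. It stood at 6.31 CPM (5.84 to 6.80), log2 −2.53 against WT crypt-like cells and −2.50 against the crypt-like cells of the same library. *Smoc2* (29.6 CPM, log2 −1.70 against WT) and *Olfm4* (0.755 CPM, log2 −5.74) were also at least 2-fold lower, and *Prox1* (46.5 CPM, log2 5.13), *Tnfrsf19* (19.1 CPM, log2 1.39) and *Mex3a* (13.0 CPM, log2 1.19) at least 2-fold higher. *Ascl2*, which is held with *Lgr5* to define the crypt base stem cell, did not follow it and stood at 88.1 CPM (86.3 to 89.9, log2 0.36). *Gkn3* (87.1 CPM, log2 −0.31) stood between −0.39 and 0.13 under other processing. These 3 higher and 3 lower of 9 compare with 14.0% and 7.18% of all tested genes. The *LApc* and *LApcL* comparisons share the WT cells. Within the *LApcL* library only *Prox1* was at least 2-fold higher in adenoma-like than in crypt-like cells (log2 2.20), against 9.28% of all tested genes, and *Lgr5*, *Olfm4* and *Smoc2* were at least 2-fold lower, against 4.95%.

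**Figure D2:**
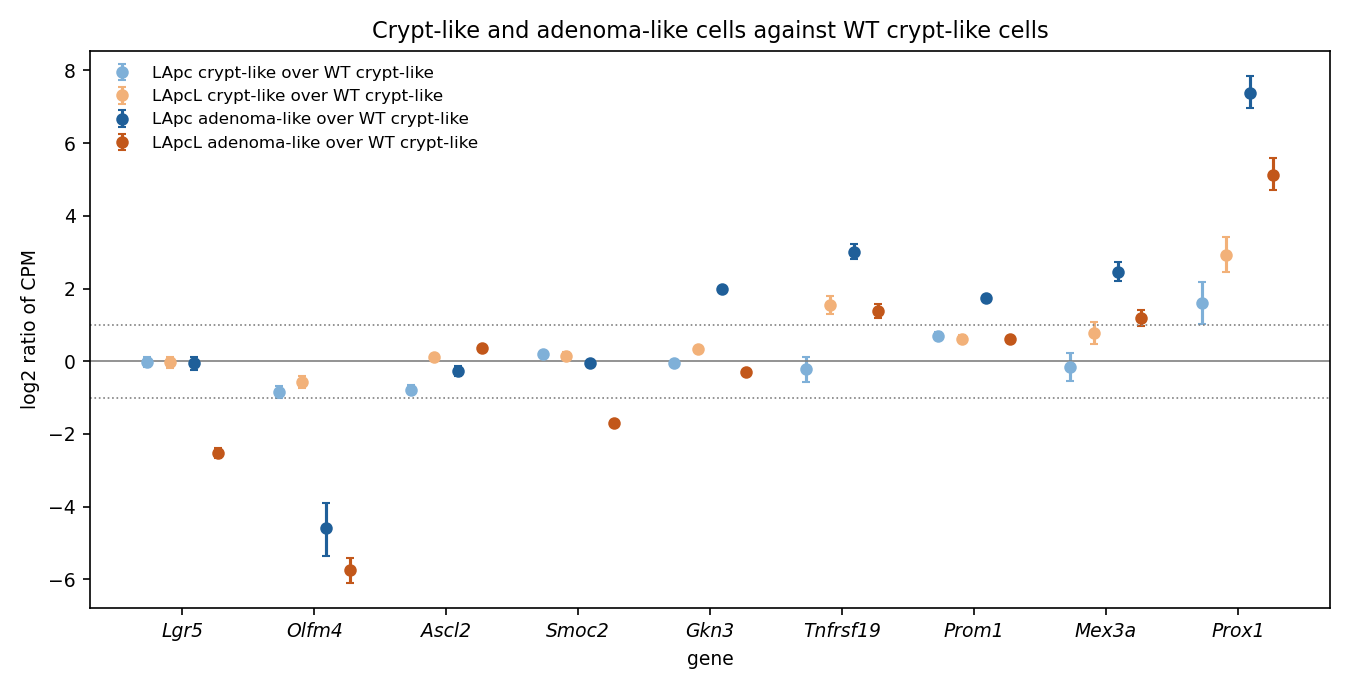
log2 ratio of CPM to WT crypt-like cells for the 9 genes in crypt-like and adenoma-like cells of *LApc* and *LApcL*. Bars are 95% intervals of counting error and dotted lines mark 2-fold. *Lgr5* lies at −0.06 in *LApc* and −2.53 in *LApcL* adenoma-like cells, and *Ascl2* stays within 2-fold in all 4 populations.

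Set directly against each other, the adenoma-like cells of the mutant libraries differed in 7 of the 8 genes that reached 2 CPM in either (*Olfm4* did not). All 7 were lower in *LApcL*, against 13.0% of all tested genes, and the median log2 ratio of the 8 was −1.64 against −0.15. *Lgr5* had a log2 ratio of −2.47 (−2.66 to −2.28), *Gkn3* −2.28, *Prox1* −2.26, *Smoc2* −1.64, *Tnfrsf19* −1.63, *Mex3a* −1.28 and *Prom1* −1.11. None was at least 2-fold higher, against 1.12%. *Ascl2* was higher in *LApcL* at 0.62 (0.50 to 0.75). Of the R-spondin receptors, *Lgr4* stood at 139 and 144 CPM in *LApc* and *LApcL* adenoma-like cells, and *Lgr6* at 0.499 and 8.11 CPM, so the lower level of *Lgr5* was not shared by its relatives.

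The adenoma-like cells of the libraries were not alike in make-up. Clustered without integration of the libraries, 57.2% of the *LApc* but 0.620% of the *LApcL* adenoma-like cells fell in a cluster led by *Wfdc18*, 32.2% and 63.8% in a cluster led by *S100g*, a calcium-binding protein, and 8.38% and 35.2% in a cluster led by *Anxa1*, the gene of annexin A1. *Lgr5* differed between these clusters within *LApc*, with 51.7 CPM in the *Wfdc18*-led, 16.8 CPM in the *S100g*-led and 11 CPM in the *Anxa1*-led cells. *Prox1* followed the same order (329, 116 and 34.9 CPM) and so did *Tnfrsf19* (75.6, 44.6 and 26.7 CPM) and *Smoc2* (116, 67.7 and 53.3 CPM). *Ascl2* ran the other way, at 43.5, 75.1 and 78.2 CPM. *Gkn3* was highest in the *S100g*-led cells (522 CPM).

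Within each cluster the gap between the libraries was smaller for *Lgr5*, though in the *Anxa1*-led cells it was larger for *Gkn3* and *Prom1*. In the *S100g*-led cells *Lgr5* stood at 7.21 CPM in *LApcL* and 16.8 CPM in *LApc*, a log2 ratio of −1.22 (−1.63 to −0.79), and 4 genes, *Lgr5*, *Smoc2* (−1.14), *Gkn3* (−2.08) and *Tnfrsf19* (−1.16), were at least 2-fold lower, against 10.1% of all tested genes, and none at least 2-fold higher, against 1.24%. In the *Anxa1*-led cells *Lgr5* had −1.32 (−2.16 to −0.34) on 12 UMIs of *LApc*, and 3 genes, *Lgr5*, *Gkn3* (−2.66) and *Prom1* (−1.42), were at least 2-fold lower, against 9.79%, and none higher, against 4.12%. In the *Wfdc18*-led cells, only 54 of which were *LApcL*, none passed 2-fold in either direction, against 8.67% lower and 5.91% higher, and *Lgr5* stood at −0.74 (−1.57 to −0.02). The direction for *Lgr5* was the same in each cluster at a size between 1.68- and 2.50-fold, against 5.56-fold over all adenoma-like cells. *Ascl2* was at 0.02, 0.48 and 0.41 in the 3 clusters. These clusters were picked after the data had been seen, and *Wfdc18* itself was lower in *LApcL* within them.

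**Figure D3:**
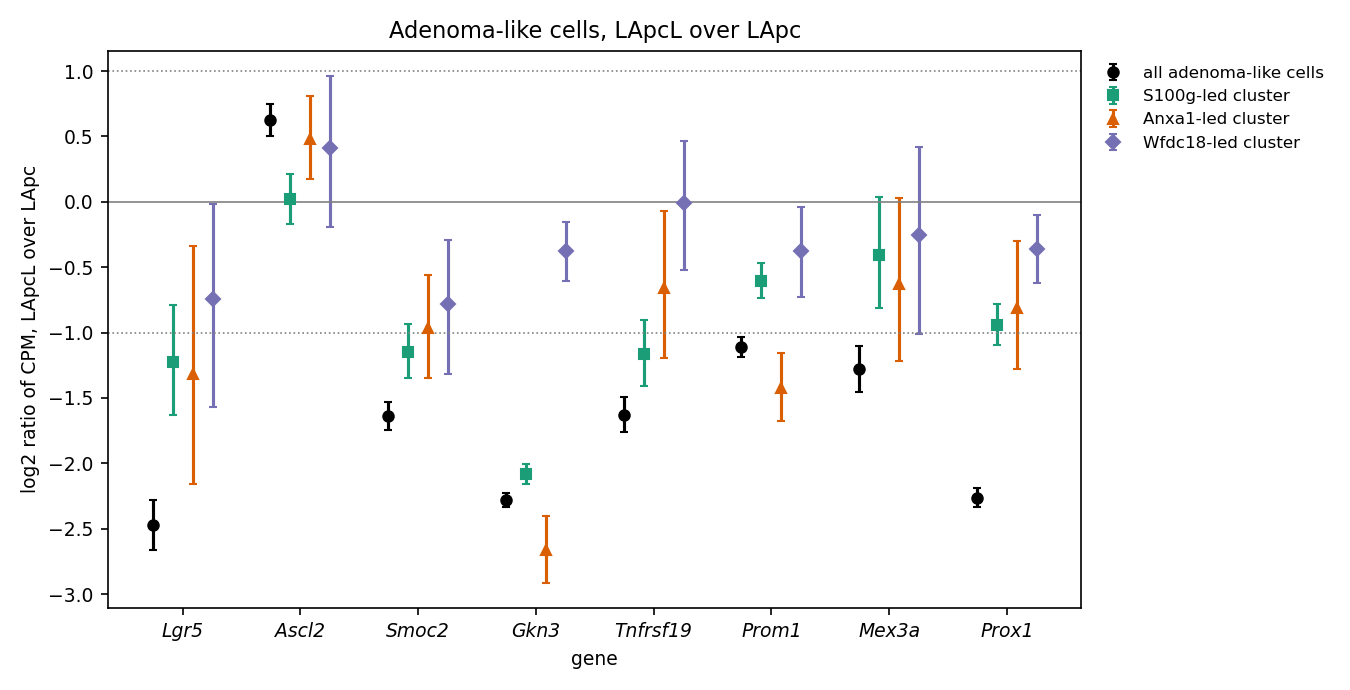
log2 ratio of CPM, *LApcL* over *LApc*, for 8 of the genes over all adenoma-like cells and within 3 clusters made without integration. Bars are 95% intervals of counting error and dotted lines mark 2-fold. For *Lgr5* the ratio is −2.47 over all cells and −1.22, −1.32 and −0.74 within the clusters.

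The other genes of the crypt base gave a setting for these values. Of 20 such genes (*Axin2*, *Sox9*, *Cd44* and others), 10 were at least 2-fold higher and 1 at least 2-fold lower in *LApc* adenoma-like than in WT crypt-like cells, against 24.8% and 5.86% of all tested genes, with a median log2 ratio of 0.96. The largest were *Phlda1* (3.75), *Igfbp4* (2.63), *Znrf3* (2.06) and *Rnf43* (1.97), the last pair ubiquitin ligases that restrain Wnt receptors, *Cd24a* (1.93), and, lower, the water channel *Aqp4* (−3.08). In *LApcL* adenoma-like cells 7 were at least 2-fold higher and 2 at least 2-fold lower than in WT, against 14.0% and 7.18%, median 0.68. Between *LApcL* and *LApc* adenoma-like cells 4 of 20 were at least 2-fold lower, against 13.0%, *Phlda1* (−2.22), *Rgmb* (−1.63), *Znrf3* (−1.16) and *Sox9* (−1.09), and the median was −0.06, near that of all tested genes. In *LApc* crypt-like cells none of the 20 passed 2-fold against WT, where 3.18% of all tested genes were higher and 1.18% lower, and in *LApcL* crypt-like cells 4 did, all higher, against 4.52%.

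To ask which markers stayed with *Lgr5* in single cells, each cell was thinned to 3000 UMIs and counted as *Lgr5*-positive with 1 UMI or more. By this measure 10.7% of WT crypt-like cells (325 of 3048, 9.59% to 11.8%), 10.8% of *LApc* and 10.6% of *LApcL* crypt-like cells were positive. Of *LApc* adenoma-like cells 10.6% were (131 of 1233, 8.96% to 12.5%), and of *LApcL* adenoma-like cells 2.1% (183 of 8698, 1.81% to 2.43%). Among adenoma-like cells with a *Sox17* or *Msx1* UMI before thinning, 43 of 704 were positive in *LApc* and 172 of 8355 in *LApcL*. Most *Lgr5*-positive adenoma-like cells of *LApc* thus held no UMI of either gene. Tuft-like cells of WT had 9.89% (26 of 263). Enterocyte-like cells, which should lack *Lgr5*, had 0.968%, 0.621% and 0.175% in WT, *LApc* and *LApcL*. Before thinning the shares were 24.2%, 19.0% and 23.1% of crypt-like and 19.7% and 6.47% of adenoma-like cells, at median UMI counts of 10624, 7011, 8781, 7525 and 11677, and thinning left out 0, 76, 11, 32 and 14 cells. A cell without an *Lgr5* UMI at this depth need not lack the transcript.

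In WT crypt-like cells 5 of the 8 other genes were coupled to *Lgr5*, that is, at least 2-fold higher in cells with an *Lgr5* UMI, against 7.66% of all tested genes and 1.84% of those at 20 CPM or more. *Gkn3* stood at 297 CPM in positive and 92.3 CPM in negative cells (log2 1.69, 1.49 to 1.88), *Olfm4* at 92.3 and 37.7 CPM (1.29) and *Ascl2* at 147 and 67.8 CPM (1.11). *Gkn3* was thus detected in 48.9% of *Lgr5*-positive and 18.7% of negative cells. *Tnfrsf19* (1.46) and *Prox1* (3.26, on 8 and 7 UMIs) were coupled too, *Smoc2* (0.94) and *Prom1* (0.55) were higher by less, and the interval of *Mex3a* (0.38) held 0. The level rose with the number of *Lgr5* UMIs for *Gkn3* (92.3, 287 and 345 CPM in cells with 0, 1 and at least 2), *Olfm4* (37.7, 86.7 and 119 CPM) and *Tnfrsf19* (6.73, 14.9 and 35.7 CPM). *Ascl2* did not rise further, with 67.8, 154 and 113 CPM, nor did *Prox1*, with 0.857, 8.67 and 5.95 CPM, the last on 1 UMI.

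Crypt-like cells of the mutant libraries kept part of this pattern. In *LApc* 6 of 8 genes were coupled, against 9.24% of all tested genes (3.04% of those at 20 CPM or more), though only 3 (*Olfm4*, *Tnfrsf19*, *Mex3a*) with classes by marker score. The ratios were highest for *Tnfrsf19* at 1.74, *Olfm4* at 1.68, *Gkn3* at 1.43, *Smoc2* at 1.16 and *Ascl2* at 1.09. The interval of *Prox1* (1.04) held 0. In *LApcL* 4 of 8 were, against 7.62% (1.61%), namely *Olfm4* (1.27), *Prox1* (1.18), *Mex3a* (1.16) and *Gkn3* (1.13), while *Ascl2* had 0.90 and *Tnfrsf19* 0.36 with an interval that held 0. The median over the 8 genes was 1.20 in WT, 1.12 in *LApc* and 1.01 in *LApcL*, against −0.05 to 0.00 over all tested genes.

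In the adenoma-like cells the coupling changed from gene to gene. *Ascl2* was no longer higher with *Lgr5*. In *LApc* it stood at 50.9 CPM in positive and 64.7 CPM in negative cells (log2 −0.35, −1.09 to 0.32) and was detected in 13.0% and 14.9% of them. In *LApcL* it stood at 78.3 and 87.5 CPM (−0.16, −0.63 to 0.27), in 19.7% and 21.9% of cells. These intervals lie below those of *Ascl2* in WT (0.84 to 1.38) and *LApcL* (0.50 to 1.27) crypt-like cells. *Smoc2*, in contrast, was coupled in both, at 221 against 92.6 CPM in *LApc* (1.26, 0.90 to 1.61) and 82.0 against 33.5 CPM in *LApcL* (1.29, 0.83 to 1.73). *Olfm4* could hardly be followed, with 0 UMIs in the 131 *Lgr5*-positive and 7 UMIs in the 1102 negative cells of *LApc*, and 2 and 22 UMIs in *LApcL*.

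The remaining genes lay between these. In *LApc* adenoma-like cells *Prox1* (476 against 240 CPM, 0.99) and *Tnfrsf19* (120 against 62.3 CPM, 0.94) were just short of 2-fold, and *Gkn3* (0.56), *Prom1* (0.35) and *Mex3a* (0.17) further off, so that *Smoc2* alone was counted, against 11.8% of all tested genes (3.42% of those at 20 CPM or more). In cells with 0, 1 and at least 2 *Lgr5* UMIs *Prox1* had 240, 465 and 519 CPM and *Ascl2* 64.7, 51.3 and 49.4 CPM, the last on 4 UMIs. *Gkn3* had 459, 788 and 235 CPM, so its direction turned in the 27 cells with at least 2 *Lgr5* UMIs, though on only 19 *Gkn3* UMIs. In *LApcL* adenoma-like cells 4 were coupled, against 5.86% (1.44%), but only 2 at a mitochondrial limit of 10%, at 6000 UMIs or with another random thinning. These were *Olfm4* (2.08, with an interval that held 0), *Smoc2*, *Gkn3* (1.14) and *Tnfrsf19* (1.01), and *Prox1* had 0.57. *Olfm4*, *Smoc2* and *Gkn3* (136 against 87.1 CPM) also stood higher in crypt-like than in adenoma-like cells of *LApcL*. *Ascl2*, *Mex3a* and *Prox1* stood lower there, and the intervals of *Tnfrsf19* and *Prom1* overlapped. The part of crypt-like cells or of their free RNA in this coupling was not tested. The count for *LApc* adenoma-like cells ranged from 1 to 3 under other settings. The median of the 8 genes was 0.45 in *LApc* and 0.83 in *LApcL*.

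**Figure D4:**
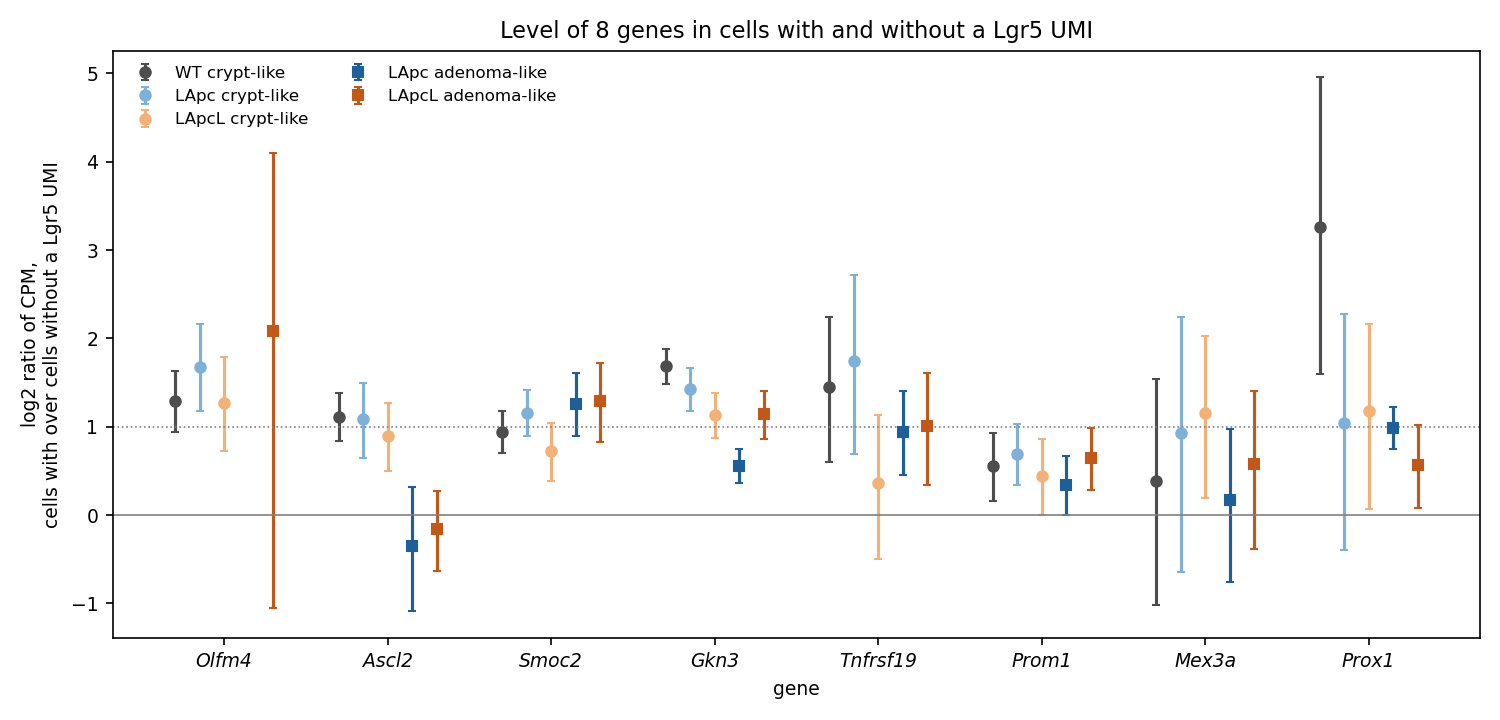
log2 ratio of CPM between cells with and without an *Lgr5* UMI, for 8 genes in crypt-like and adenoma-like cells thinned to 3000 UMIs. Bars are 95% intervals of counting error, the dotted line marks 2-fold, and *Olfm4* in *LApc* adenoma-like cells has no point since no positive cell held a UMI. *Ascl2* lies between 0.90 and 1.11 in crypt-like cells and at −0.35 and −0.16 in adenoma-like cells.

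Genes outside the 9 moved with *Lgr5* as well. Of the 20 other crypt base genes 11 were coupled in WT and 9 in *LApc* crypt-like cells, against 7.66% and 9.24% of all tested genes. In *LApcL* crypt-like (*Znrf3*), *LApc* adenoma-like (*Rgmb*) and *LApcL* adenoma-like cells (*Aqp4*) 1 of 20 was, against 7.62%, 11.8% and 5.86%. This is no more than the share of all tested genes. It is more than the share of those at 20 CPM or more, which was 1.61%, 3.42% and 1.44%. The difference between populations was not tested. The 5 populations had medians of 1.11, 0.83, 0.62, 0.23 and 0.32. *Slc12a2*, a chloride cotransporter, kept log2 ratios of 1.17, 1.23, 0.78, 0.92 and 0.73 in that order. It also served to name crypt-like cells, as did *Cdca7*, *Ephb2* and *Ephb3* of the 20 and the 8 cell-cycle genes below. Of 8 cell-cycle genes 5 to 8 were lower in *Lgr5*-positive cells, with medians from −0.76 to −0.27. In *LApc* adenoma-like cells *Sox17* (−1.07), *S100g* (−0.89) and *Lyz1*, the Paneth cell lysozyme (−1.91), were lower and *Wfdc18* higher (1.30) in positive cells, and in *LApcL* *Sox17* had −0.29 and *Wfdc18* 1.33. The part of these cell groups in the coupling was not tested beyond the values without them. Among adenoma-like cells with a *Sox17* or *Msx1* UMI, *Smoc2* and *Prox1* were coupled in *LApc*. In WT tuft-like cells 2 of 8 genes passed 2-fold, against 15.9% of all tested genes (15.8% of those at 20 CPM or more), neither with an interval above 0, and in *LApcL* tuft-like cells 2 of 7, against 16.5% (16.1%). Over all kept cells, where class differences enter, 6 of 8 genes were coupled in WT, against 10.3% (5.00%), all 8 in *LApc*, against 13.3% (6.90%), and *Olfm4*, *Smoc2* and *Gkn3* in *LApcL*, against 5.25% (1.23%).

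In crypt-like and adenoma-like cells of the 3 libraries the number of markers per cell was higher with *Lgr5*. In WT tuft-like cells it was not, with means of 0.769 in 26 positive and 0.895 in 237 negative cells. An *Lgr5*-positive WT crypt-like cell held UMIs of 1.71 of the 8 other genes on average and a negative one of 0.850, and 24.0% against 7.05% held 3 or more. In *LApc* adenoma-like cells the means were 2.28 and 1.63, with 42.7% and 21.6% at 3 or more, and in *LApcL* adenoma-like cells 1.29 and 0.869, with 11.5% and 5.64%. Cells marked by other members outnumbered *Lgr5*-positive cells throughout, a comparison that sets 8 genes against 1 and depends on their levels. *Smoc2* alone was detected in 25.5% of WT crypt-like cells, against 10.7% for *Lgr5*. At least 1 of the 9 genes was detected in 58.8% of WT crypt-like, 84.7% of *LApc* adenoma-like and 59.3% of *LApcL* adenoma-like cells, and of those 18.1%, 12.5% and 3.55% held *Lgr5*.

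**Figure D5:**
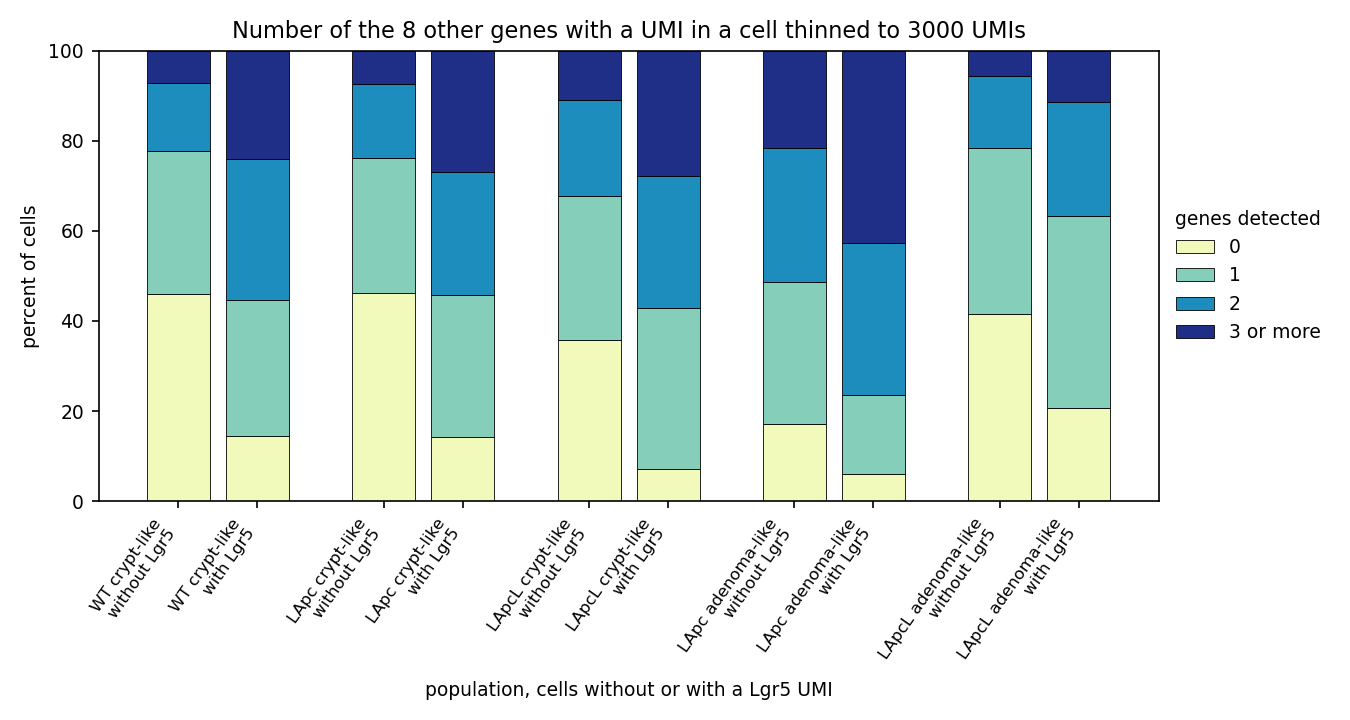
Share of cells in which 0, 1, 2 or at least 3 of the 8 other genes had a UMI, for cells without and with an *Lgr5* UMI, thinned to 3000 UMIs. Cells with 3 or more make up 24.0% of *Lgr5*-positive WT crypt-like cells and 42.7% of *Lgr5*-positive *LApc* adenoma-like cells, against 7.05% and 21.6% of negative cells.

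Correlations across cells of 1 library, which share library and sequencing depth, did not rank the genes in the order of the ratios. In WT crypt-like cells *Gkn3* had Pearson's r of 0.242 with *Lgr5*, rank 2 of 8128 genes detected in at least 2% of the 3048 cells, and it ranked 9 in *LApc* and 1 in *LApcL* crypt-like cells. In the adenoma-like cells it fell to rank 603 in *LApc* (r = 0.0546, n = 1233 cells) and 21 in *LApcL* (r = 0.0484, n = 8698 cells). *Prox1* (r = 0.168, rank 3) and *Smoc2* (r = 0.145, rank 7) stood highest in *LApc*, and *Smoc2* (r = 0.0642, rank 4) in *LApcL*. *Ascl2* went from 0.133 in WT crypt-like cells to −0.0213 and −0.00816. The highest of the 36 pairs was *Lgr5* with *Gkn3* in the crypt-like cells of each library, and *Gkn3* with *Prom1* in the adenoma-like cells of *LApc* (r = 0.205) and *LApcL* (r = 0.153). All these correlations were weak and, in counts this sparse, serve as a description only.

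Over crypt-like and adenoma-like cells together, the genes outside the 9 with the pattern most like *Lgr5* by Pearson's r included *Slc12a2* (0.248), *Rps19* (0.227), *Rps18* (0.226) and *Malat1* (0.222) in WT (3051 cells). They were *Slc12a2* (0.215), *Pdgfa* (0.213), *Lbh* (0.154), *Malat1* (0.148) and *2210407C18Rik* (0.139) in *LApc* (3294 cells), and *Clca3b* (0.141), *Slc12a2* (0.132), *A930009A15Rik* (0.127), *Aldh1b1* (0.125) and *Cd74* (0.111) in *LApcL* (10396 cells). *Gkn3* ranked 2, 13 and 10 on this measure and *Smoc2* 79, 3 and 5.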

How the data were processed

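The authors prepared droplet libraries from the transcripts' 3′ ends, with a kit version that is not given per library in the sources used here, and quantified them with Cell Ranger 2.1.1 on mm10 (GRCm38). The deposited files hold raw counts of UMIs for each gene in each cell, without normalization. The authors' cell annotation was not used here, so classes were rebuilt. In each library the 1% of barcodes with the most and with the fewest genes were removed, as were barcodes above 20% mitochondrial UMIs. Of the rest, those with the highest Scrublet doublet scores were removed, at the expected rate of 9.16%, 10.6% and 13.9% (WT, *LApc*, *LApcL*). This took out 1023, 1135 and 2326 barcodes, where Scrublet's own cut called 2065, 4 and 755, and left 10138, 9601 and 14394 cells. Seurat 5.3.0 integrated the libraries over 955 features without the 9 genes and clustered them at resolution 0.2 from 20 components. A class name needed at least 3 of its markers raised 1.5-fold. Where both the adenoma and the crypt name qualified, the adenoma name was given. The adenoma-like cluster was such a case, with 4 adenoma and 10 crypt markers raised. UMI counts were summed per library and class and given as CPM with exact Poisson intervals. Ratios have exact conditional binomial intervals and shares Clopper-Pearson intervals. Genes at 2 CPM or more in either group were compared and called at 2-fold. For coupling, cells were thinned to 3000 UMIs. The code was tested on simulated counts. Python 3.11.15 and R 4.3.3 were used.

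The 9 genes and the gene lists were chosen with earlier results of these data known. All 9 genes are named. Other crypt base genes are named where they passed 2-fold in a main comparison, at most 6 by size, and genes like *Lgr5* as the 5 with the highest Pearson's r per library, of which 1 is not reported here. *Slc12a2*, *Rgmb*, *Znrf3*, *Aqp4*, *Sox17*, *S100g*, *Wfdc18* and *Lyz1* in the coupling were named after their values were seen. Alternatives were another resolution, no integration, classes by marker score, a mitochondrial limit of 10%, 2 times the doublet rate, other totals and centring, and other thinning. Not all results were recomputed under them. Those left out include the *LApcL* crypt-like cells, both against WT and for coupling. That class held 1709 cells as reported, 1250 without integration and 5059 by marker score. The adenoma-like class of *LApcL* held 8712, 9575 and 4827 cells in the same order.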

Additional observations from a re-analysis of the deposited data

Results flagged for a closer look

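*Gkn3* moved in opposite directions within the mutant libraries. In adenoma-like against crypt-like cells of the same library its log2 ratio was −0.64 in *LApcL* and 2.01 in *LApc*, and the difference was not tested, since each genotype had 1 library.

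A small group of cells led by haemoglobin genes had no class name and entered no comparison (46 cells in WT, 180 in *LApc* and 256 in *LApcL*). Some of the 9 genes stood above the WT level in these cells. *Ascl2* had 77.1 CPM in *LApcL* against 24.4 CPM in WT, *Tnfrsf19* 21.3 CPM in *LApcL* against 0 in WT, *Prox1* 29.8 CPM in *LApcL* against 5.43 CPM in WT, and *Gkn3* 131 CPM in *LApc* against 43.4 CPM in WT. *Sox17* moved with them, at 245 CPM in the unnamed cells of *LApcL* and 15.1 CPM in those of *LApc*, and its part in these levels was not tested.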

How the results depend on the processing

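Of 69 recomputed counts of genes 57 stayed within 1.5 times the reported count and 12 moved. Of 571 values of single genes 481 moved by less than their counting interval. None of a gene counted as past 2-fold changed sign. The genes at least 2-fold lower in *LApcL* than in *LApc* adenoma-like cells were 4 in place of 7 within the *S100g*-led cluster. With classes by marker score, 2 genes (*Olfm4*, *Prox1*) passed 2-fold in *LApc* crypt-like cells in place of 1, and 3 in place of 6 were coupled there. Coupled genes in *LApc* adenoma-like cells were 1 as reported, 2 at resolution 0.4, with 2 times the doublet rate, at 6000 UMIs and in cells with a *Sox17* or *Msx1* UMI, and 3 at a mitochondrial limit of 10% and with at least 2 *Lgr5* UMIs. In *LApcL* adenoma-like cells they were 2 in place of 4 at the limit of 10%, at 6000 UMIs and with another random thinning. The *S100g*-led cluster and the cells with a *Sox17* or *Msx1* UMI were chosen after seeing the data. The causes of these moves were not tested.

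*Smoc2* was coupled under 10 of 10 alternatives in the adenoma-like cells of each mutant library (1.11 to 1.61 in *LApc*, 1.17 to 1.58 in *LApcL*) and *Ascl2* under none (−0.50 to −0.06 and −0.34 to 0.15). *Lgr5* was lower in *LApcL* than in *LApc* adenoma-like cells at −2.55 to −1.22. *Gkn3* coupling in *LApc* adenoma-like cells ranged from −0.97 to 0.87. Centring on the median of genes at 50 CPM or more shifted log2 ratios of *LApc* adenoma-like to WT crypt-like cells by 0.13 and the other comparisons by less than 0.1. Coupling was not computed for fewer than 20 *Lgr5*-positive cells, which left out the *S100g*-led cells of *LApc* (17) and *LApcL* adenoma-like cells with at least 2 *Lgr5* UMIs (13).

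No paired analysis was possible because each genotype had 1 library, so the groups share only replicate number 1. Depth limits *Prox1* in crypt-like cells and *Olfm4* in adenoma-like cells, which rest on few UMIs.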

Other observations

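The crypt-like class held a less and a more proliferative part at a finer resolution of 0.4. In WT, *Lgr5* had 60.1 CPM and *Gkn3* 170 CPM in 1430 cells with *Mki67*, a proliferation gene, at 60.8 CPM, and 19.9 and 64.6 CPM in 1558 cells with *Mki67* at 255 CPM. *Olfm4* (64.6 and 23.9 CPM) and *Tnfrsf19* (11.7 and 4.29 CPM) had the same order, and *Prom1* (59.5 and 46.0 CPM) differed less. The mutant libraries showed that order for *Lgr5* too, with 61.2 and 18.8 CPM in *LApc* and 45.5 and 19.7 CPM in *LApcL*.

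*Ascl2* was high in tuft-like cells of *LApcL* at 141 CPM (123 to 160, 309 cells), above its 60.0 CPM in WT (50.5 to 70.8) and 54.4 CPM in *LApc* (34.5 to 81.6, 87 cells). *Smoc2* stood at 115, 64.7 and 70.9 CPM in the same cells and *Lgr5* at 35.2, 40.3 and 26.0 CPM. *Sox17* was at 76.2 CPM in tuft-like cells of *LApcL*, 0.857 CPM in WT and 21.3 CPM in *LApc*, and its part in the *Ascl2* level was not tested.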
